A study of Mus musculus with 6 samples.

Results

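The 32 genes described here carry cholesterol through the adult mouse prefrontal cortex, from its synthesis to its uptake and removal. They were chosen by symbol for these known roles, and all were found among the 18160 genes of the deposited table. By role, 8 genes act in the mevalonate steps, 11 between squalene and cholesterol, 5 in regulation and 7 in transport, and Cyp46a1 alone stands for turnover. All 32 passed the filter on low values, which asked for a 6-sample mean of 10 normalized counts or more and left 15151 genes. Their mean levels ran from 470.7 to 31571 normalized counts, so no sterol gene was close to the filter.

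Stranded mRNA libraries of bulk prefrontal cortex were sequenced in adult mice (postnatal day 56) on the C57BL/6J background. There were 3 wild-type samples (WT) and 3 labelled CYFIP2 heterozygote. CYFIP2 belongs to the WAVE regulatory complex, which drives branched actin assembly. The labels do not say how the allele was made, nor that each sample is a mouse of its own, so p-values here measure only the spread between these samples, which may be technical.

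The brain makes nearly all of its own cholesterol, because lipoproteins of the blood do not cross the blood-brain barrier. Acetyl-CoA is built up into mevalonate and then squalene, which is closed into a ring and trimmed to cholesterol. When membrane sterol is low, SCAP carries SREBP transcription factors out of the endoplasmic reticulum, where INSIG proteins otherwise hold them, and SREBP2 switches on the enzyme genes. Oligodendrocytes use cholesterol for myelin, astrocytes export it on APOE particles, and neurons dispose of the excess as 24-hydroxycholesterol, made by CYP46A1.

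Promoter sequences are shown first, because the enzyme genes are known as a group under shared control. The values below give the side of wild type on which each gene lay, and shared control was not tested. RefSeq promoters (GRCm38.p6) were matched by symbol for 26 of the 32 genes. Fdps, Fdft1, Sqle, Stard4, Abcg1 and Npc1 had no entry. The 250 bases before each start were searched on both strands for TCACCNCA, a core of the sterol regulatory element that SREBPs bind, for CCAAT, the box of their partner NF-Y (ATTGG on the other strand), and for the E-box CACGTG. The motifs do not overlap in the stretches printed. Capitals mark the matches. Each stretch begins 200 bases before the RefSeq start, and position -1 is the last base before that start. It stops at -1 or, where an annotated exon begins sooner, just before that exon.
Hmgcs1 (chr13:119690151-119690350, plus strand): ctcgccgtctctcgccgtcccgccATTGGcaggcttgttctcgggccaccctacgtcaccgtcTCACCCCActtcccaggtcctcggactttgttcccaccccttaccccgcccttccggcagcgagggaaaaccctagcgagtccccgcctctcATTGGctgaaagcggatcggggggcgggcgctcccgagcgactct
Cyp51 (chr5:4104747-4104897, minus strand): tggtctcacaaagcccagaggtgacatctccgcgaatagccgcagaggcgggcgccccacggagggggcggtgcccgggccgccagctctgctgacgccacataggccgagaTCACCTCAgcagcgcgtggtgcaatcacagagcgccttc
Hsd17b7 (chr1:169969242-169969405, minus strand): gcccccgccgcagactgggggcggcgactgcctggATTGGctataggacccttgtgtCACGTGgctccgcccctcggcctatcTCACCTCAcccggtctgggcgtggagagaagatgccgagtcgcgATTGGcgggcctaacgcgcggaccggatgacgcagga
Srebf2 (chr15:82147069-82147180, plus strand): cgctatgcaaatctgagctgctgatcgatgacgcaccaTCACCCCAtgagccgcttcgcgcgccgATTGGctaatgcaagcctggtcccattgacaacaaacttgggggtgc
Sc5d (chr9:42264301-42264500, minus strand): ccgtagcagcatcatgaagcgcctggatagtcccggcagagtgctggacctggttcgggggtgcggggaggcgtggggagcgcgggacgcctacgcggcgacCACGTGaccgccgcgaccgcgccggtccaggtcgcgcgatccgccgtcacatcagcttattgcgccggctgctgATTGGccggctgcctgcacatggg
Cyp46a1 (chr12:108334116-108334315, plus strand): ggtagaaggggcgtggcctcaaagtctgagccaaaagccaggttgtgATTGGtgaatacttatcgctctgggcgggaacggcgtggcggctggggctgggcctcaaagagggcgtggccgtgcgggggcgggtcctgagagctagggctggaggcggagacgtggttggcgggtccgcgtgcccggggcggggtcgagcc

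Hmgcs1, Cyp51, Hsd17b7 and Srebf2 are printed because they hold the sterol element, which starts at -137, -88, -117 and -162. Sc5d and Cyp46a1 are printed as examples, 1 higher and 1 lower, of genes whose values did not overlap between genotypes and which have no such element in this window. Tm7sf2 is another such gene and is not printed. Over all genes with a promoter entry, 4.18% held TCACCNCA in at least 1 of their starts, against 5 of the 26 sterol genes (the 4 printed and Apoe). The CCAAT box was in 15 of the 16 synthesis enzymes with an entry, all but Acat2, and in 37.5% of all genes. The E-box was in 6 of the 26 sterol genes (Hsd17b7, Sc5d, Dhcr7, Scap, Insig1 and Abca1) and in 6.86% of all genes. These are matches of letters and show no binding.

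Levels were compared per kilobase of the longest coding transcript, over all 6 samples. Apoe, the main apolipoprotein of brain lipoproteins, stood first at 22422 ± 2417 normalized counts per kb (SD, n = 6). Cyp46a1 followed at 3938 ± 177 and Hmgcs1, which makes HMG-CoA for mevalonate, at 2822 ± 196 (SD, n = 6 each). Lrp1, a receptor that takes up APOE particles, was at 1760 ± 164, and Srebf2 at 1668 ± 47.6 (SD, n = 6 each). These last 2 did not differ beyond their spread, whereas the ranges of Apoe, Cyp46a1 and Hmgcs1 were apart from each other and from all lower genes. The lowest levels were those of Hsd17b7, a sterol reductase, at 185 ± 11.6, and of the efflux pump Abca1, at 163 ± 21.7 (SD, n = 6 each). With the length of all exons in place of the longest coding transcript, the order of the first 5 genes was the same, and Tm7sf2 moved from rank 18 to rank 32.

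**Figure D1:**
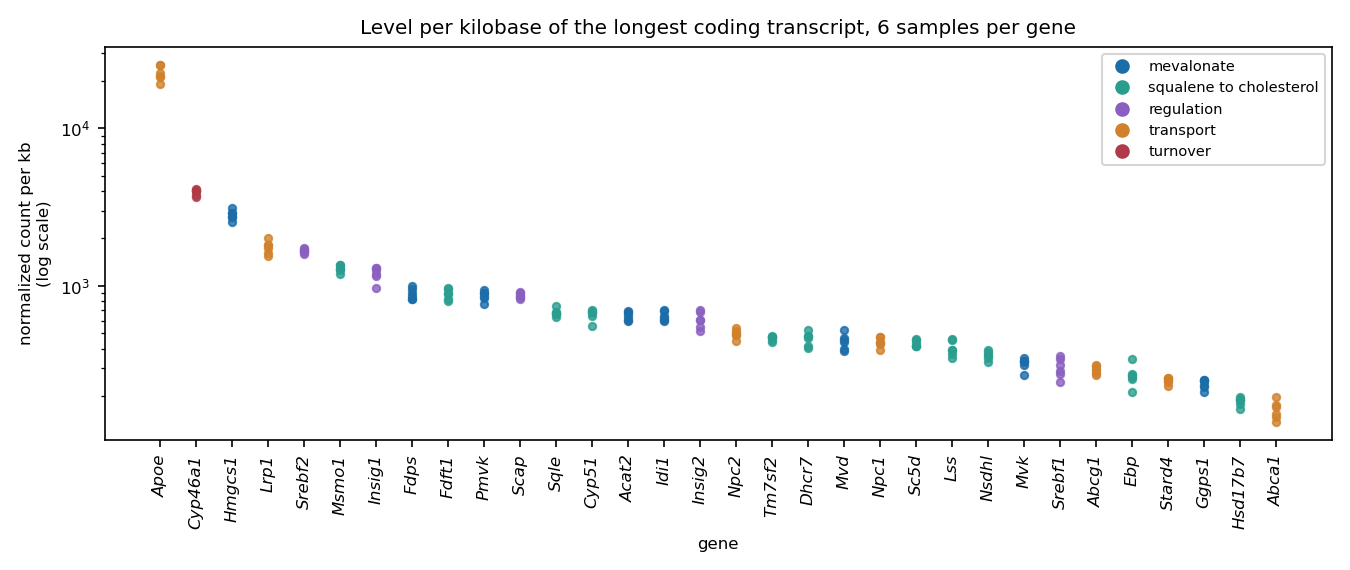
Level of each sterol gene per kilobase of its longest coding transcript (log axis, normalized counts per kb), with a point for each of the 6 samples and colours for the 5 roles. Apoe lies highest at 22422 and Abca1 lowest at 163 on average.

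The heterozygous libraries carried the labelled change: Cyfip2 was at 45454, 43174 and 45627 normalized counts in wild-type samples 1, 2 and 3 and at 28356, 28578 and 29567 in heterozygous samples 1, 2 and 3. The genotypes did not overlap, and Cyfip2 fell by 0.63 ± 0.05 (SE) on the log2 scale (adjusted p = 0.0027 by limma-trend, and 0.15 without the trend). Totals per sample were 36396022 to 37121421 normalized counts. The number of reads is not known, and the low values imply about 27200000 to 48000000 reads per sample, which is an estimate. All 10 neuronal markers of the cortical label were detected, with 1772 normalized counts as the lowest value in any sample. Wild-type sample 2 stood apart in oligodendrocyte RNA. The summed count of 15 oligodendrocyte and myelin genes was 192107 there against 147491 and 137957 in the other wild-type samples and 134331 to 145855 in heterozygous samples.

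No sterol gene passed the threshold. Genotypes were compared by limma-trend on log2(normalized count + 1), a linear model per gene whose variances are shrunk toward a trend in level, with Benjamini-Hochberg adjustment over all 15151 genes and an adjusted p of 0.05 as the limit. The count was 0 of 32, where 0.0132% of all genes passed, and the smallest adjusted p among the 32 was 0.91. It was also 0 of 32 without the trend and with robust shrinkage. At an unadjusted p under 0.05, 1 of 32 passed (Fdft1, higher), against 5.07% of all genes (2.36% higher and 2.71% lower). Differences below are heterozygous minus wild type on the log2(normalized count + 1) scale, and a percentage of wild type is taken from the same model.

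Most synthesis enzymes were nevertheless above wild type. Of the 19 synthesis enzymes, 16 were above wild type, against 50.8% of all genes tested, and their median difference was 0.09, against 0.0020 for all genes. Over all 32 genes, 24 were higher in heterozygotes and the median was 0.08. This median was 0.039 without wild-type sample 1 and 0.049 without wild-type sample 3, where that of the enzymes was 0.051. The genotypes did not overlap in 4 of 32 genes (Fdft1 and Sc5d higher, Tm7sf2 and Cyp46a1 lower), which is 12.5%, where 10.5% of all genes did not overlap (5.15% higher and 5.3% lower), so this share was near the background. No list was tested as a whole, because the genes were chosen with results of these samples known.

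**Figure D2:**
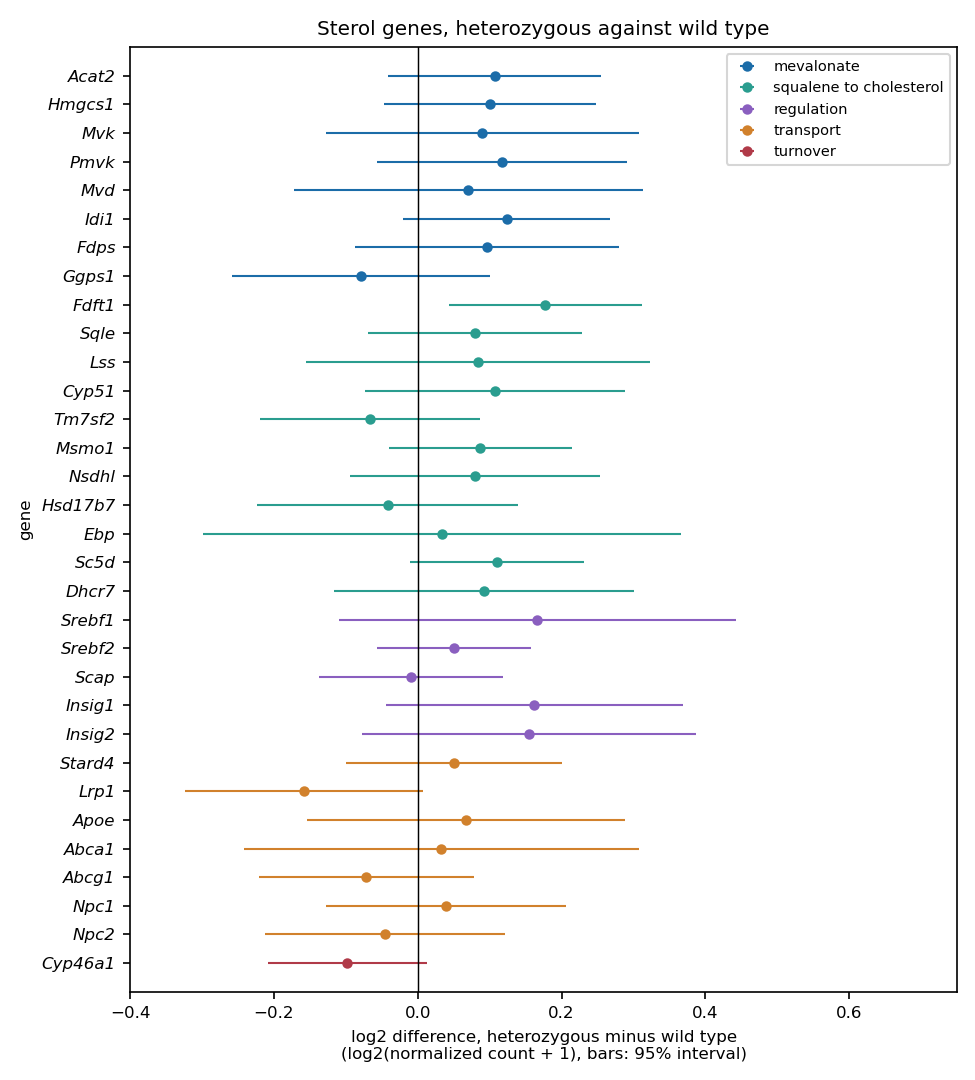
Log2 difference (heterozygous minus wild type) of each sterol gene with its 95% interval from the moderated model, coloured by role. Most synthesis enzymes lie right of 0, and only the interval of Fdft1, from 0.04 to 0.31, leaves 0 out.

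In the mevalonate steps, 7 of 8 genes were above wild type and Ggps1 below, with a median difference of 0.10, or 0.056 without wild-type sample 3. Hmgcs1 was at 10058, 9507 and 8752 normalized counts in wild-type samples 1, 2 and 3 and at 10741, 9518 and 10087 in heterozygous samples 1, 2 and 3. Heterozygous sample 1 was highest and wild-type sample 3 lowest, with overlap between the genotypes. The difference was 0.10 ± 0.07 (SE), or 107% of wild type with a 95% interval of 96.8% to 119%.

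Idi1, which isomerizes the building blocks of isoprenoids, had the smallest p of this step (adjusted p = 0.95 by limma-trend). It was at 1805, 1940 and 1847 normalized counts in wild-type and at 2113, 1893 and 2092 in heterozygous samples. Heterozygous sample 2 lay within the wild-type range and the other two above it. The difference was 0.12 ± 0.06 (SE), or 109% of wild type with an interval of 98.6% to 120%.

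Acat2, the cytosolic thiolase at the head of the pathway, was at 1368, 1487 and 1353 normalized counts in wild-type and at 1431, 1568 and 1531 in heterozygous samples. Wild-type sample 2 lay above heterozygous sample 1, and the difference was 0.11 ± 0.07 (SE). Of its 31-base words, 43.7% also occur in transcripts of other genes, so reads of this gene cannot be assigned with certainty. The gene sharing the most of them was its paralogue Acat3. Acat3 itself was at 166 to 207 normalized counts in wild-type and 140 to 231 in heterozygous samples.

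Fdps makes farnesyl pyrophosphate, the last product before squalene. It was at 1197, 1249 and 1145 normalized counts in wild-type and at 1140, 1326 and 1386 in heterozygous samples. Heterozygous sample 1 was the lowest of all 6 and the other two heterozygous samples the highest, and the difference was 0.10 ± 0.08 (SE). Fdps shares 27.9% of its 31-base words with other transcripts, Idi1 18.8% and Ggps1 10.3%.

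Mvk, Pmvk and Mvd, which phosphorylate and decarboxylate mevalonate, had differences of 0.09 ± 0.10, 0.12 ± 0.08 and 0.07 ± 0.11 (SE), with overlapping genotypes. Mvd was at 915 normalized counts in wild-type sample 2, above all heterozygous samples at 775 to 814. Ggps1 makes geranylgeranyl pyrophosphate for protein prenylation, off the sterol branch, and was the 1 gene of this step below wild type, at -0.08 ± 0.08 (SE).

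From squalene to cholesterol, 9 of 11 genes exceeded wild type (median difference 0.08), and the genotypes did not overlap in 3, or 27.3%, against 10.5% of all genes. That median was 0.046 without wild-type sample 1 and 0.051 without wild-type sample 3. Fdft1 (ENSMUSG00000021273, chromosome 14, 63145150 to 63179578, minus strand, GRCm38) encodes squalene synthase, which commits farnesyl pyrophosphate to sterols. It was at 2944, 3295 and 3031 normalized counts in wild-type and at 3566, 3353 and 3558 in heterozygous samples. All 3 heterozygous values lay above the wild-type values, though heterozygous sample 2 was close to wild-type sample 2. The difference of 0.18 ± 0.06 (SE), or 113% of wild type with an interval of 103% to 124%, was the largest of the 32 genes (adjusted p = 0.91 by limma-trend). For genes whose genotypes do not overlap, an exact two-sided permutation test gives 0.1, and no arrangement of 3 and 3 samples can give less. The 31-base words of Fdft1 were shared to 14.3%. The gene sharing the most of them was the pseudogene Gm6781, which was at no more than 2.32 normalized counts in any sample.

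Sc5d (chromosome 9, 42251595 to 42264256, minus strand), a sterol desaturase late in the pathway, had wild-type values close together. It was at 2000.4, 1992 and 1990 normalized counts in wild-type and at 2173, 2077 and 2209 in heterozygous samples. The genotypes did not overlap, and the difference was 0.11 ± 0.05 (SE), or 108% of wild type with an interval of 99.2% to 117% (adjusted p = 0.95 by limma-trend).

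Sqle, the squalene epoxidase that is a rate-limiting enzyme of the pathway, was at 1816, 1869 and 1747 normalized counts in wild-type and at 1834, 1843 and 2070 in heterozygous samples. Only heterozygous sample 3 lay above the wild-type range, and the difference was 0.08 ± 0.07 (SE). Dhcr7, which catalyses the final reduction to cholesterol, was at 1176, 1471 and 1141 normalized counts in wild-type and at 1358, 1346 and 1309 in heterozygous samples. Wild-type sample 2 was the highest of all 6 and the other two wild-type samples the lowest. The difference of Dhcr7 was 0.09 ± 0.09 (SE).

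The ring closure enzyme Lss and the demethylase Cyp51 had the same pattern, with wild-type sample 2 highest of all samples, at 2156 and 2765 normalized counts. Their differences were 0.08 ± 0.11 and 0.11 ± 0.08 (SE). Msmo1 and Nsdhl, which act together to remove methyl groups from the sterol ring, had differences of 0.09 ± 0.06 and 0.08 ± 0.08 (SE). Ebp, a sterol isomerase, varied widely among heterozygous samples, at 597, 369 and 476 normalized counts in samples 1, 2 and 3, with a difference of 0.03 ± 0.15 (SE).

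Tm7sf2 and Hsd17b7, both sterol reductases, were the 2 genes of this step below wild type. Tm7sf2 was at 710.1, 714 and 716 normalized counts in wild-type and at 709.6, 660.1 and 676 in heterozygous samples. The genotypes did not overlap, but heterozygous sample 1 was within 1 normalized count of wild-type sample 1. Its difference was -0.07 ± 0.07 (SE), and 12.9% of its 31-base words lie in other transcripts, with Vps51 the gene sharing the most. Hsd17b7, which holds a sterol element and CCAAT boxes in the stretch printed above, was at -0.04 ± 0.08 (SE).

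**Figure D3:**
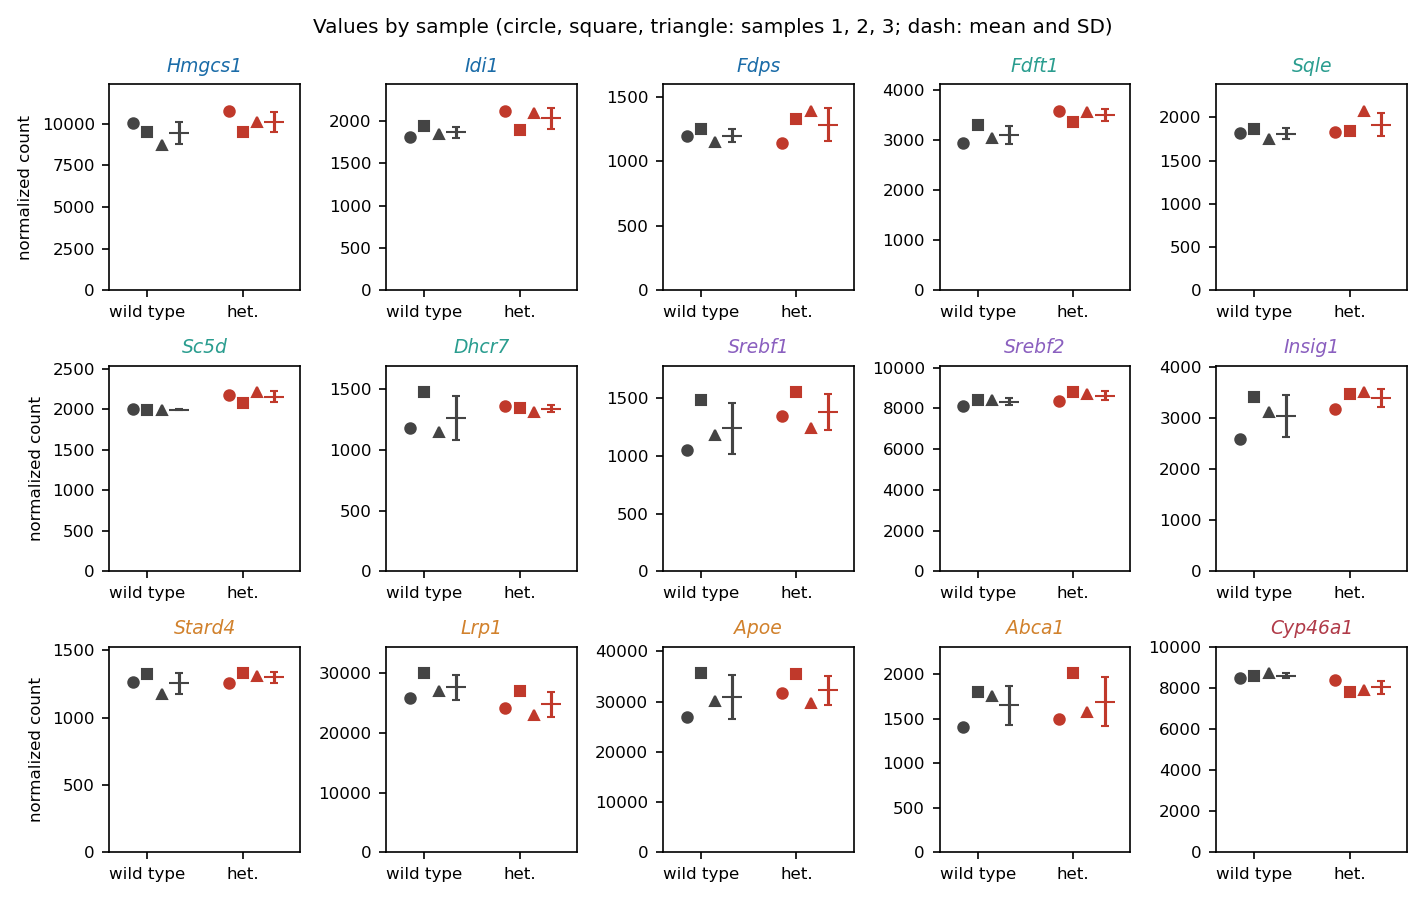
Normalized counts of 15 sterol genes by sample (circle, square and triangle are samples 1, 2 and 3 of each genotype; dash and bar are the mean and SD, n = 3), with each axis starting at 0. The genotypes separate for Fdft1, Sc5d and Cyp46a1 and overlap for the other genes drawn.

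Of the regulators, 4 of 5 were above wild type, with a median difference of 0.16, and none separated the genotypes. Leaving out wild-type sample 1 or 2 gave a regulator median of 0.053 or 0.078, and leaving out heterozygous sample 1 or 2 gave 0.086 or 0.080. Srebf2 (chromosome 15, 82147181 to 82205379, plus strand), the main activator of cholesterol synthesis genes, was at 8120, 8415 and 8437 normalized counts in wild-type and at 8363, 8788 and 8701 in heterozygous samples. Heterozygous sample 1 lay within the wild-type range, and the difference was 0.05 ± 0.05 (SE), or 104% of wild type with an interval of 96.1% to 112%. Srebf1, the relative that mainly drives fatty acid genes, was at 1054, 1484 and 1180 normalized counts in wild-type and at 1350.2, 1551 and 1246 in heterozygous samples. Sample 2 was highest in both genotypes, and the difference was 0.17 ± 0.12 (SE).

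Insig1 and Insig2 encode the proteins that retain SCAP and SREBP in the endoplasmic reticulum, and Insig1 is itself an SREBP target. Insig1 was at 2603, 3417 and 3122 normalized counts in wild-type and at 3186, 3481 and 3509 in heterozygous samples. Wild-type sample 1 was far below the rest, and the difference was 0.16 ± 0.09 (SE), or 112% of wild type with an interval of 97.0% to 129%. Insig2 was at 1632, 1391 and 1635 normalized counts in wild-type and at 1899, 1470 and 1837 in heterozygous samples, with sample 2 lowest in both genotypes. The difference of Insig2 was 0.16 ± 0.10 (SE), and that of the escort gene Scap was -0.0094 ± 0.06 (SE).

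The transport genes were mixed, with 4 of 7 above wild type and a median difference of 0.03, and the genotypes overlapped in all 7. Leaving out wild-type sample 1, 2 or 3 gave a transport median of -0.074, 0.092 or 0.0033, and leaving out heterozygous sample 1 or 2 gave 0.071 or -0.068. Lrp1 (chromosome 10, 127538161 to 127621148, minus strand) had the lowest difference of the 32 genes. It was at 25909, 29983 and 26995 normalized counts in wild-type and at 24222, 27060 and 23042 in heterozygous samples. Heterozygous samples 1 and 3 lay below every wild-type sample, and heterozygous sample 2 within their range. The difference was -0.16 ± 0.07 (SE), or 89.6% of wild type with an interval of 79.9% to 101% (adjusted p = 0.95 by limma-trend, and 0.29 with the sample number as a block).

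Apoe (chromosome 7, 19696109 to 19699188, minus strand) was at 26981, 35608 and 30120 normalized counts in wild-type and at 31704, 35394 and 29617 in heterozygous samples. Sample 2 was again highest in both genotypes, and the difference was 0.07 ± 0.10 (SE), or 105% of wild type with an interval of 89.8% to 122%. Abca1, which loads lipid onto APOE, was at 1403, 1798 and 1751 normalized counts in wild-type and at 1499, 2009 and 1571 in heterozygous samples. The wild-type range lay within the heterozygous one but for sample 1, and the difference was 0.03 ± 0.12 (SE).

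Abcg1, another sterol exporter, was at 1640.02, 1826 and 1809 normalized counts in wild-type and at 1586, 1694 and 1737 in heterozygous samples, with a difference of -0.07 ± 0.07 (SE). Stard4, a cytosolic sterol carrier and SREBP target, was at 1263, 1328 and 1174 normalized counts in wild-type and at 1255, 1329 and 1311 in heterozygous samples. Its highest values in each genotype were nearly the same, and its difference was 0.05 ± 0.07 (SE). Npc1 and Npc2, which pass cholesterol out of lysosomes, had differences of 0.04 ± 0.07 and -0.05 ± 0.07 (SE).

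Cyp46a1 (ENSMUSG00000021259, chromosome 12, 108334381 to 108362234, plus strand), the neuronal 24-hydroxylase that opens the exit route of brain cholesterol, was below wild type. It was at 8513, 8618 and 8736 normalized counts in wild-type and at 8426, 7820 and 7937 in heterozygous samples. Every heterozygous value lay under every wild-type value, with heterozygous sample 1 the closest to them. The group means were 8622 ± 111 and 8061 ± 321 (SD, n = 3 each). The difference was -0.10 ± 0.05 (SE), or 93.4% of wild type with an interval of 86.5% to 101% (adjusted p = 0.95 by limma-trend).

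Cell type markers also varied between the samples, and in bulk tissue fewer cells of a type cannot be told apart from less RNA per cell. Relative to the wild-type mean, the mean of the 19 enzymes on the log2 scale was -0.03, 0.08 and -0.05 in wild-type samples 1, 2 and 3 and 0.07, 0.05 and 0.09 in heterozygous samples 1, 2 and 3. Wild-type sample 2 thus lay among the heterozygous samples. Of all 32 genes, 22 had their highest wild-type value in sample 2, the 7 transport genes among them, where 34.3% of all genes tested did. In the oligodendrocyte and myelin list, the mean was -0.12, 0.27 and -0.16 in wild-type and -0.08, -0.10 and -0.20 in heterozygous samples. All 15 of these genes were below wild type in heterozygotes, where 50.8% of all genes tested were above, and none was at 0. Wild-type sample 2 held the highest wild-type value in all 15. The list means of wild-type samples 1 and 3 lay within the heterozygous range.

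In the list of 12 astrocyte markers, 10 were above wild type, and the summed count was 203469 to 237684 in wild-type and 216119 to 236315 in heterozygous samples. The astrocyte mean was -0.12, 0.13 and -0.0046 in wild-type and 0.11, 0.13 and -0.03 in heterozygous samples, and no marker was at 0. For the 10 neuronal markers, the summed count was 454724 to 475614 in wild-type and 441624 to 452346 in heterozygous samples, without overlap. Of these, 6 were above wild type and 4 below, with a median difference of 0.02. The neuronal mean was 0.10, -0.07 and -0.03 in wild-type and 0.02, -0.04 and -0.0044 in heterozygous samples, so by this measure the genotypes overlapped. Endothelial and pericyte markers were above wild type in 11 of 12, meningeal markers in 8 of 10 and microglial markers in 8 of 12. Striatal markers were below in 7 of 10. Their summed counts did not overlap, at 12223 to 13581 in wild-type and 10699 to 11569 in heterozygous samples. The striatal means did overlap, at -0.01, 0.20 and -0.19 in wild-type and -0.23, -0.14 and -0.04 in heterozygous samples. No marker of these lists was at 0. The part of these markers in the sterol values was not tested.

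**Figure D4:**
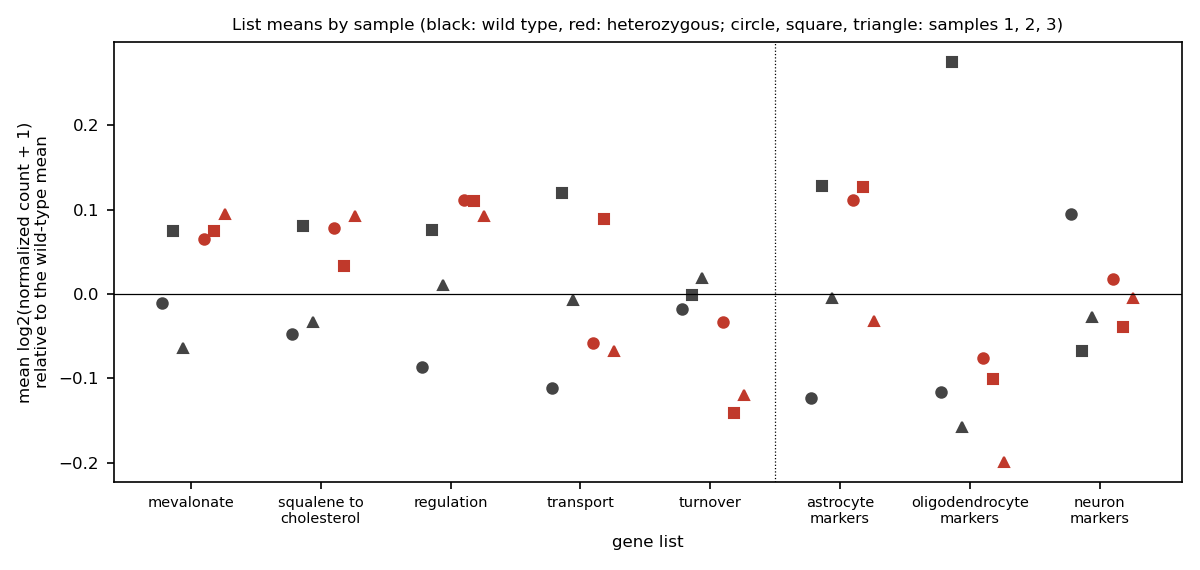
Mean log2(normalized count + 1) of each list relative to the wild-type mean, by sample (black wild type, red heterozygous; circle, square and triangle are samples 1, 2 and 3). In wild-type sample 2 the enzyme and transport lists lie near or above the heterozygous samples and the oligodendrocyte list stands at 0.27.

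Within a genotype, the enzymes were weakly correlated with each other. After subtracting each genotype's mean, 118 of the 171 pairs of the 19 enzymes had a correlation above 0 over the 6 samples, with a median of 0.21. Mvd, Fdft1 and Dhcr7 followed the mean of the other enzymes most closely, at 0.95, 0.88 and 0.88. Ggps1 and Ebp went against it, at -0.55 and -0.21. The points share libraries and cell content, so these values are a description. Pairs of other genes were not measured in this way, so the values show nothing particular to the enzymes.

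The number of separated genes differed with the samples used, and leaving out a sample raises it over all genes too. Without wild-type sample 2, the genotypes did not overlap in 16 of 32 sterol genes, 13 of them higher and 13 of the 16 among the enzymes, against 24.0% of all genes tested in those 5 samples. The enzyme median was then 0.13 and the median of all genes -0.00038. Without heterozygous sample 1 and without heterozygous sample 2, 9 of 32 did not overlap, against 20.3% and 19.2% of all genes. The share was below that of all genes without wild-type sample 1, at 6 of 32 (18.8%) against 21.3%. It was also below without heterozygous sample 3, at 5 of 32 (15.6%) against 19.9%. Without wild-type sample 3, the count was 4 against 17.5% of all genes, the enzyme median 0.05 and the number of enzymes above wild type 14. In none of these did limma-trend call a sterol gene, the smallest adjusted p being 0.54 without wild-type sample 2. Sterol genes under an unadjusted p of 0.05 (limma-trend) numbered 1, 7 and 1 of 32 without wild-type samples 1, 2 and 3. The shares of all genes were 5.74%, 7.07% and 3.46%. Without heterozygous samples 1, 2 and 3, the sterol genes under that p numbered 3, 4 and 0, against 4.70%, 4.46% and 4.91% of all genes. Wild-type sample 2 held the highest wild-type value in 22 of the 32 genes, so leaving it out lowers the top of their wild-type range.

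**Figure D5:**
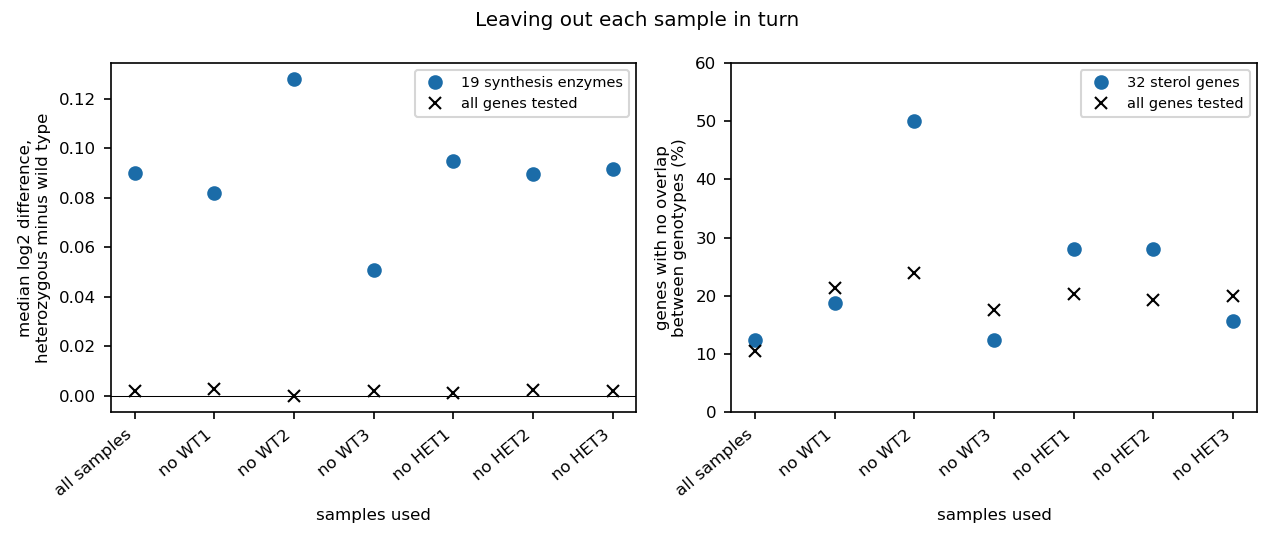
Left, median log2 difference of the 19 enzymes (circles) and of all genes tested (crosses) with all samples and with each left out; right, percentage of the 32 sterol genes and of all genes whose genotypes do not overlap. The enzyme median ranges from 0.05 to 0.13, and the share of separated sterol genes reaches 50% without wild-type sample 2, where all genes are at 24.0%. That sample held the highest wild-type value in 22 of the 32 sterol genes.

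Other genes around the pathway were split between directions. In 6 further lists, 77 of 78 genes were in the table and all 77 were tested, with 41 above wild type, 36 below and a median of 0.0095. None passed over all genes by limma-trend or at an unadjusted p under 0.05. Among 17 lipogenic SREBP targets, 12 were above wild type with a median of 0.02. The smallest p values were those of the fatty acid synthase gene Fasn at 0.08 ± 0.05 and the desaturase gene Fads1 at 0.11 ± 0.07 (SE). Fasn was at 11192, 11771 and 11579 normalized counts in wild-type and at 12158, 12501 and 11851 in heterozygous samples, the only gene of its list without overlap.

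Of 10 genes for processing and degradation of SREBP and its regulators, 5 were above wild type and 5 below. The smallest p values there belonged to the ubiquitin ligase genes Rnf145 at -0.12 ± 0.06 and Syvn1 at -0.11 ± 0.05 (SE). In this list the genotypes did not overlap in 4 of 10 genes, where 10.5% of all genes did not. Of these, 2 were lower (Rnf145 and Syvn1) and 2 higher (Mbtps1 and Erlin2). Of 12 liver X receptor and efflux genes, 6 were above, and Abca7 and the receptor gene Rxrb were at -0.13 ± 0.07 and -0.09 ± 0.05 (SE). Of 21 uptake and intracellular transport genes, 14 were below with a median of -0.05, among them Stard3 at -0.14 ± 0.07 and the APOE receptor gene Lrp8 at -0.12 ± 0.06 (SE).

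Of 6 tested genes of oxysterol and bile acid routes, 4 were above. Sult2b1, a sterol sulfotransferase, was at 0.23 ± 0.11, and Cyp39a1, which hydroxylates 24-hydroxycholesterol further, at -0.31 ± 0.18 (SE). Cyp39a1 was at 103 to 157 normalized counts in wild-type and 97.7 to 120 in heterozygous samples. Of 11 genes in the isoprenoid side branches, 7 were above, with Rabggtb, a subunit of the enzyme that prenylates Rab proteins, at 0.15 ± 0.07 and the methyltransferase gene Icmt at -0.08 ± 0.05 (SE).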

How the data were processed

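Per the submitters' processing notes, Salmon 0.11.2, R 3.6.0, DESeq2 1.19.11 and GRCm38 were used, with roles not stated. Libraries were made with a stranded mRNA kit, per the labels. The deposited values are a normalized signal (normalized counts) per gene, not raw counts. Within 0.1 reads, 79.5% to 84.3% of values up to 2 reads but only 21.2% to 43.3% of those of 10 to 20 reads fell on whole reads, so no count model was used; this is the design's branch for normalized values. Columns were assigned by sample title. The test was limma-trend (limma 3.58.1, R 4.3.3) on log2(value + 1), a scale that understates changes of low genes, with genotype as the only term and a filter at a mean of 10. Intervals are 95% intervals of the model. The procedure was tested on simulated data. Symbols matched for 18122 of 18160 identifiers; positions and lengths are from GENCODE M21. Members, lists and motifs were chosen with earlier results of these data known. Per-sample values are given for 14 genes set by name and the 2 with the smallest p of each role; of each further list, the 2 with the smallest p are named. Tm7sf2 and some values of Mvd, Lss, Cyp51, Ebp and Acat3, were chosen after their values were seen. Alternatives were pseudocounts of 0.5 and 5, no filter or a mean of 50, trimmed-mean (TMM) scaling, no variance trend, robust shrinkage, the sample number as a block, a threshold of 0.1 and leaving out each sample.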

Additional observations from a re-analysis of the deposited data

How the results depend on the processing

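No sterol gene passed the threshold under any of the alternatives run, and the smallest adjusted p was 0.29, for Lrp1 with the sample number as a block. The labels do not say whether sample numbers pair the samples. Same-numbered samples deviated together at correlations of 0.13, 0.12 and -0.0052. The largest correlation of wild-type samples 1, 2 and 3 with a heterozygous sample of another number was 0.03, -0.03 and 0.05. Numbers 1 and 2 thus went best with their own number and number 3 did not, which leaves pairing unsettled. With that replicate block, 6 of 32 sterol genes were under an unadjusted p of 0.05, against 9.0% of all genes, the count of all genes past the threshold stayed at 2, and Cyp46a1 remained at -0.10 (adjusted p over its alternatives 0.55 to 1.00). The count over all genes was 1 with a mean of at least 50, 1 without the trend, where Cyfip2 was at -0.63 with an adjusted p of 0.15, and 1 to 4 on leaving out each sample (4 without wild-type sample 1 or heterozygous sample 3, 1 without heterozygous sample 1). Leaving out each sample also moved the median of all 32 genes (0.039 to 0.10), the mevalonate median (0.056 to 0.14), the squalene to cholesterol median (0.046 to 0.11), the number of sterol genes without overlap (4 to 16; 16 without wild-type sample 2), the regulation median (0.053 to 0.14) and the transport median (-0.074 to 0.092). No sterol gene changed direction under the other alternatives. On leaving out a sample, 10 of 32 did: Mvk (-0.0045 to 0.14), Mvd (-0.0043 to 0.21), Lss (-0.0018 to 0.21), Hsd17b7 (-0.083 to 0.026), Ebp (-0.14 to 0.21), Scap (-0.035 to 0.026), Apoe (-0.027 to 0.17), Abca1 (-0.097 to 0.11), Npc1 (-0.028 to 0.10) and Npc2 (-0.084 to 0.015). The cause was not tested. The median standard error of the 32 genes was 0.08, which limits what 3 samples a genotype can resolve for a single gene. Read depth is known only as an estimate.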
